A study of Mus musculus with 10 samples.

Results

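Serotonin is made and stored by a short chain of gene products, and 8 genes of that chain were followed here through embryonic mouse pancreas by single-cell RNA sequencing. They were Fev, Tph1, Tph2, Ddc, Slc18a1, Slc18a2, Gch1 and Maob, taken by symbol from the 27716 genes of the matrices. The data came from droplet libraries in which each RNA molecule carries a unique molecular identifier (UMI), so that the values are counts of molecules per gene and cell. Swiss Webster pancreata were profiled with version 1 (v1) kits at E12.5, E14.5 (batches 1 and 2) and E17.5, all live cells being collected. A second set from the same 3 stages used version 2 (v2) kits, with mesenchymal cells removed by CD140a negative selection. The v2 E17.5 pool was run in 2 wells, which are technical replicates and were summed. A further E14.5 library came from Fev-Cre; ROSA26mTmG pancreata on a C57BL/6J background, in which Cre under Fev control switches a membrane reporter from TdTomato to GFP. Its sort took GFP+ cells together with cells that were TdTomato+ and GFP-. Each of these 8 libraries was a pool of pancreata, from 1 litter except at v1 E12.5, where 2 litters were pooled, and no animal can be told apart within a pool.

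In neurons of the raphe, Fev (Pet-1) is the ETS-family transcription factor that directs the serotonergic programme. Tryptophan hydroxylase, encoded by Tph1 outside the brain and by Tph2 in neurons, carries out the rate-limiting step from tryptophan to 5-hydroxytryptophan. It needs tetrahydrobiopterin, whose synthesis starts with the GTP cyclohydrolase encoded by Gch1. Aromatic amino acid decarboxylase, the product of Ddc, then makes serotonin. The vesicular monoamine transporters encoded by Slc18a1 (VMAT1) and Slc18a2 (VMAT2) load it into granules, and the monoamine oxidase encoded by Maob breaks amines down. Beta cells are known to produce serotonin when lactogenic hormones act on them, and rodent mast cells store serotonin beside histamine.

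The genes lie on 8 chromosomes of GRCm38 (GENCODE M21 annotation). Fev spans chr1:74881509-74885419 on the minus strand, Tph1 chr7:46644641-46672537 on the minus strand, and Tph2 chr10:115078641-115185022 on the minus strand. Ddc spans chr11:11814101-11898144 on the minus strand and Gch1 chr14:47153895-47189413 on the minus strand. Slc18a1 spans chr8:69037711-69089235 on the minus strand and Slc18a2 chr19:59260896-59296012 on the plus strand. Maob spans chrX:16709282-16817366 on the minus strand.

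RefSeq promoter windows (GRCm38.p6, from 250 bases before to 50 after a start) were on hand for 6 of the 8 genes. They were searched on both strands for AGATAA, which GATA factors bind, TTCNNNGAA (STAT), CCGGAAGT (ETS) and TGACGTCA (CRE), since Fev is an ETS factor, GATA factors act in mast cells and serotonergic neurons, and STAT factors act downstream of lactogenic hormones. Only Fev, Tph2 and Slc18a2 held a match. The 30-base stretches that hold each match are shown 5′ to 3′ on the gene's strand, with the match in capitals.
Fev, chr1:74885509-74885538 (minus strand): attgcgatgggaAGATAAgaggggcggggg
Tph2, chr10:115185133-115185162 (minus strand): catcaggagcacAGATAAccccaagcttca
Slc18a2, chr19:59260636-59260665 (plus strand): ccttggccttgaTTATCTtcaggacctttg
Slc18a2, chr19:59260852-59260881 (plus strand): cgccccctctcagcgctgtccgTGACGTCA
The GATA letters began 118 bases before the Fev start, 128 before the Tph2 start and, in reverse complement, 230 before the Slc18a2 start. The CRE letters of Slc18a2 began 4 bases before its start and ran past it. Of 32851 promoter windows of this length, 11.2% held AGATAA and 1.79% held TGACGTCA, so each match is a description of these windows and nothing more. The windows of Tph1, Ddc and Gch1 held none of the 4 motifs, including TTCNNNGAA (8.3% of windows) and CCGGAAGT (3.89%).

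After barcodes with fewer than 200 genes were left out, 57982 barcodes remained, with medians of 2952 to 11783 UMIs. The matrices held 15671934 to 127151679 UMIs each before that filter. Cells were clustered without the 8 genes, and classes were named from markers that did not include them. An endocrine class named from genes such as Pax4, Runx1t1, Cryba2 and Neurod1 is called hormone-low intermediate here. Its markers were chosen to mark the Fev+ populations that the authors described in these data, with Fev left out. No limit was set on hormone genes. The beta genes summed to 1103 to 26670 CPM in this class, the highest in v2 E17.5. The alpha genes summed to 2446 to 21310 CPM, the highest in v1 E12.5. Mast-like cells were named from Cpa3, Ms4a2, Cma1, Tpsb2, Mcpt4 and other mast genes, and the thresholds for a name were set after the clusters had been seen. Levels are in CPM, that is, scaled to the summed UMIs of the class, with exact 95% Poisson intervals that cover counting error only. Mesenchymal, endothelial and erythroid cells of the same library, where present, gave the background. No mesenchymal class was found in v1 E12.5, v2 E12.5 or v2 E14.5 and no erythroid class in the Fev-Cre library. The wells of the v2 E17.5 pool differed in Fev, Ybx1 and some other genes, and those values stand with the account of Fev.

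The 8 genes differed in where their molecules lay. Hormone-low intermediate cells held 42.2% of the 16572 Fev UMIs, unnamed endocrine clusters 30.3%, alpha-like cells 6.93% and beta-like cells 4.56%. Of these Fev UMIs, 8464 came from the Fev-Cre library, which was enriched for GFP+ cells. Mast-like cells held 162 of the 307 Tph1 UMIs (52.8%), although they were 0.395% of the barcodes. They also held 21.4% of the 551 Slc18a2 UMIs. In v1 E17.5, however, mesenchymal cells held 31 of the 50 Slc18a2 UMIs and mast-like cells 8. Beta-like cells held 20 of the 60 Tph2 UMIs, 31.6% of the 4779 Maob UMIs and 18.8% of the 575 Slc18a1 UMIs. Acinar-like cells held 40.2% of the 25367 Ddc UMIs. Tph1 and Tph2 were thus rare transcripts in every library, whereas Gch1 had 32395 UMIs in 11336 barcodes.

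**Figure D1:**
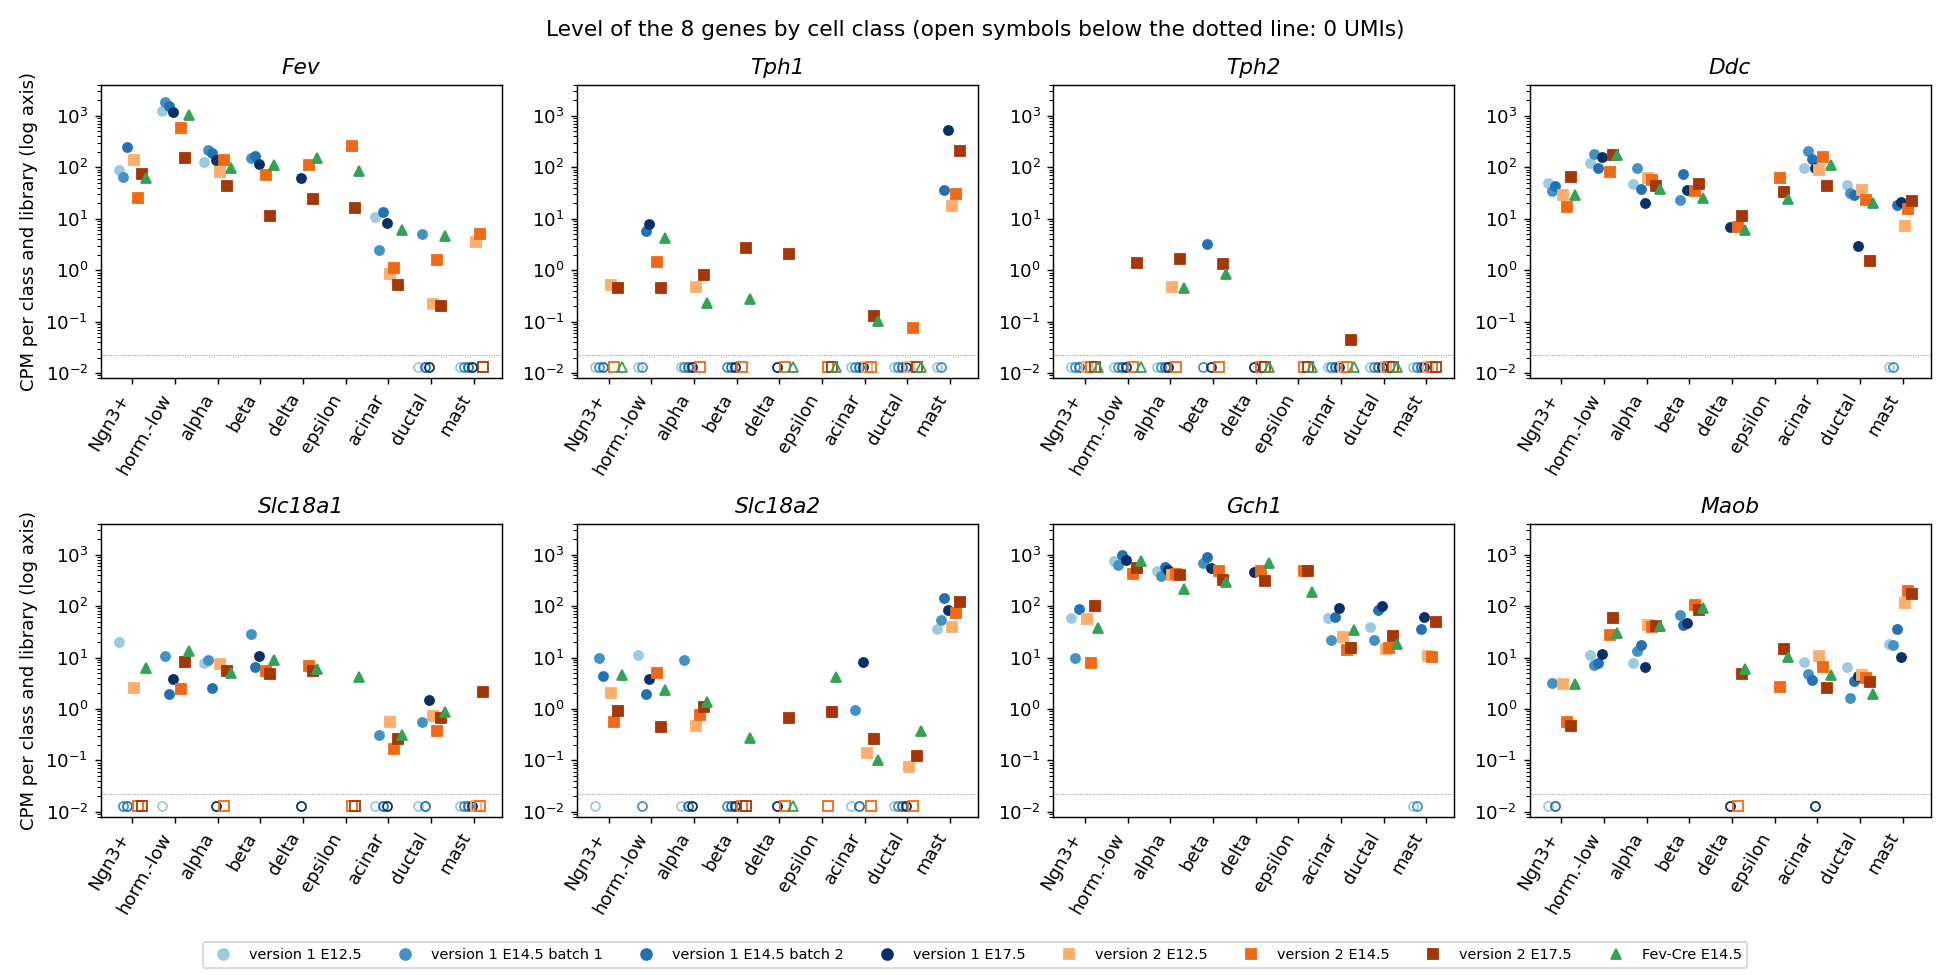
Level of each of the 8 genes (CPM of a class, log axis) by cell class, with 1 point per library for classes of at least 20 cells (mast-like, 10); classes with no UMI of a gene are drawn at the lowest mark. Fev peaked in hormone-low intermediate cells in each library that held them, Gch1 was higher in the hormone-low intermediate and hormone classes (at least 184.7 CPM) than in Ngn3+-like, acinar-like or ductal-like cells (at most 102 CPM), and Tph1 and Slc18a2 were highest in mast-like cells.

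Fev was highest in hormone-low intermediate cells. In these cells its level was 1259 CPM in v1 E12.5, 1830 and 1576 CPM in the v1 E14.5 batches, 1167 CPM in v1 E17.5, 588 CPM in v2 E14.5, 152 CPM in v2 E17.5 and 1061 CPM in the Fev-Cre library. In Ngn3+-like cells of the 6 libraries compared it ran from 25 to 252 CPM, with a median of 69.8 CPM. It was higher in the intermediate cells in 6 of 6 libraries, although the ranges met because of the low v2 E17.5 value. In an edgeR quasi-likelihood fit of summed counts with library as a block, the log2 fold change was 3.30 ± 0.44 (SE; adjusted p = 0.0001588). It ran from 3.04 to 3.86 when each library in turn was left out, and the call held each time. The class was named from markers of cells already described as Fev+ in these data. This test therefore cannot serve as separate evidence of high Fev in it.

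Gch1 and Ddc were higher in the same cells. Of the 3 members that passed the filter on low counts, all 3 were called (adjusted p under 0.05 and at least 2-fold). Fev was 1 of these 3, under the limit of naming given above. Of the 7670 genes tested, 13.1% were called. Gch1 rose by 3.87 ± 0.37 on the log2 scale (adjusted p = 1.439e-05 by edgeR), from 7.96 to 101 CPM in Ngn3+-like cells to 420 to 999 CPM. Ddc rose by 1.79 ± 0.21 (adjusted p = 5.958e-05), from a median of 39.4 CPM to a median of 149 CPM. The Ddc ranges, 17.1 to 66.2 CPM and 81.3 to 180.1 CPM, did not overlap. Maob did not pass the filter. It was higher in 6 of 6 libraries, at a mean of 24 against 1.22 CPM, with p = 0.03125 in a two-sided exact sign-flip permutation test, the smallest p that 6 libraries allow. Tph1 was higher in 3 of 6 libraries, lower in 1 and tied in 2 (exact p = 0.25). Tph2 was higher in 1 of 6 and tied in 5. Ties leave fewer differences to flip, so the exact test could not reach 0.05 for Tph1 or Tph2 and decides nothing about them. That test was added after the data had been seen, for members that the filter left out. Its p-values are unadjusted over the 33 tests run.

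Beta-like cells had less Fev and Ddc and more Maob than intermediate cells. Of 4 members tested, 3 were called, against 9.21% of 7807 genes. Fev fell by 2.98 ± 0.10 on the log2 scale (adjusted p = 2.63e-10), to 148 and 165 CPM in the v1 E14.5 batches, 116 CPM in v1 E17.5, 70.4 CPM in v2 E14.5, 11.4 CPM in v2 E17.5 and 109 CPM in the Fev-Cre library. Each of these 6 values lay below the intermediate cells of the same library, and leaving out each library in turn gave -3.02 to -2.93. The limit of naming holds for this Fev difference too, since the intermediate class was named to hold Fev+ cells. Ddc fell by 1.42 ± 0.25 (adjusted p = 0.0005821), and its beta-like range of 22.8 to 75.8 CPM did not reach that of the intermediate cells. Gch1 did not pass the test, with a log2 difference of -0.04 ± 0.17 (adjusted p = 0.8811). Its median was 514 CPM in beta-like and 683 CPM in intermediate cells, and the ranges overlapped.

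Maob, which degrades monoamines, rose by 1.91 ± 0.17 (adjusted p = 1.105e-06) from intermediate to beta-like cells. It had 42.9 to 107 CPM in beta-like cells with a median of 75.3 CPM. Intermediate cells of the same 6 libraries had 7.2 to 59.6 CPM, and beta-like cells were higher in every one of the 6.

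**Figure D2:**
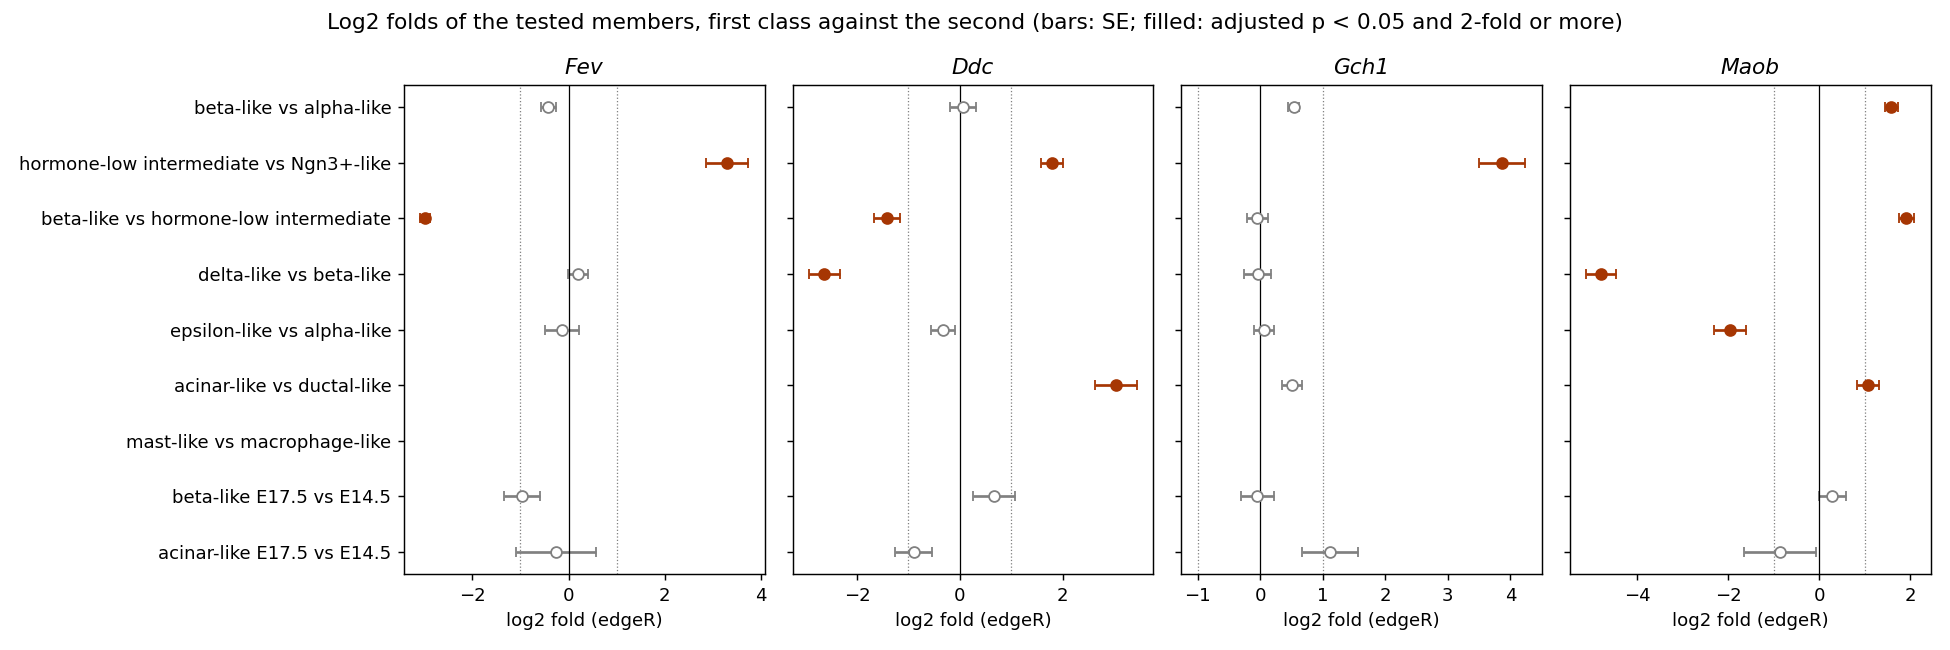
Log2 fold change (horizontal axis, with SE bars) of the members that passed the filter on low counts in each comparison of classes or stages, from the edgeR fits. Maob had the widest spread, from 1.91 between beta-like and hormone-low intermediate cells to -4.80 between delta-like and beta-like cells.

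Maob was called in each of the 3 comparisons between hormone classes. Between beta-like and alpha-like cells in 6 libraries it was the only 1 of 4 members called, against 7.2% of 7316 genes, at 1.58 ± 0.14 on the log2 scale (adjusted p = 3.345e-07). Alpha-like cells had 6.67 to 40.9 CPM, and the beta-like and alpha-like ranges did not overlap. Gch1 was higher in beta-like cells by 0.53 ± 0.09 (adjusted p = 0.0002185), which is less than 2-fold. Fev (-0.42 ± 0.16, adjusted p = 0.06803) and Ddc (0.06 ± 0.25, adjusted p = 0.8957) did not pass the test. All these adjusted p-values are from edgeR.

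Delta-like cells, which express somatostatin, had little Maob or Ddc. Their Maob level was 0 CPM in v1 E17.5 and v2 E14.5, 4.74 CPM in v2 E17.5 (7 UMIs) and 5.95 CPM in the Fev-Cre library (2 UMIs). Beta-like cells of the same libraries had 47.6, 107, 82.1 and 90.3 CPM. The Maob log2 fold change was -4.80 ± 0.32 (edgeR, adjusted p = 6.404e-09). It ran from -4.97 to -4.69 when each library in turn was left out, and the call held each time. Ddc had 6.96, 6.92, 11.5 and 5.95 CPM in these delta-like cells against 24.9 to 47.7 CPM in beta-like cells, a log2 fold change of -2.63 ± 0.30 (adjusted p = 5.096e-06). The delta-like Ddc values rested on 1, 1, 17 and 2 UMIs. They lay within the range of the Ddc background over the libraries, which is given below with the exocrine classes. Of 4 members tested in this comparison 2 were called, where 9.16% of 7271 genes were. Gch1 (-0.04 ± 0.22) and Fev (0.20 ± 0.20) were not called.

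Epsilon-like cells, which express ghrelin, had less Maob than alpha-like cells in 3 of 3 libraries. The alpha genes summed to 2442, 31740 and 26020 CPM in epsilon-like cells of v2 E14.5, v2 E17.5 and the Fev-Cre library. Epsilon-like Maob levels were 2.69 (1 UMI), 14.53 and 10.3 CPM (5 UMIs) in that order, against 39.1, 40.9 and 40.5 CPM. In v2 E17.5 the 17 Maob UMIs lay in a cluster of 80 cells led by Ghrl and Avp (21.3 CPM). Another cluster of 41 epsilon-like cells, led by Irs4 and Cdkn1a, had 0 Maob UMIs. The Maob log2 fold change was -1.96 ± 0.35 (edgeR, adjusted p = 0.02992), and 1.26% of 8700 genes were called. This call was lost without the Fev-Cre library (-1.97, adjusted p = 0.09083) and with its matrix aligned without reporter genes (-1.37, adjusted p = 0.1421). It was also lost without the library block (-1.95, adjusted p = 0.1928) and with at least 500 genes per barcode (-2.60, adjusted p = 0.266). None of the other 3 members tested was called.

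In the exocrine compartment Ddc was the member that stood out. Acinar-like cells of the 8 libraries had 43.8 to 210.2 CPM (median 106 CPM), and ductal-like cells had 1.52 to 46.2 CPM (median 25.9 CPM). Ddc was higher in acinar-like cells in 8 of 8 libraries, with a log2 fold change of 3.03 ± 0.41 (edgeR, adjusted p = 0.0001018). The background of Ddc was 3.9 to 39.1 CPM, so part of the ductal-like range lay within it. Of 3 members tested 2 were called, against 12.6% of 11050 genes. The other was Maob at 1.07 ± 0.24 (adjusted p = 0.003824), with 0 to 10.5 CPM in acinar-like and 1.66 to 6.6 CPM in ductal-like cells. It was higher in 6 of 8 libraries, and its log2 fold change under total-UMI scaling was 0.64 (adjusted p = 0.07481). Without v1 E14.5 batch 1, v2 E12.5 or the Fev-Cre library it was 0.98, just under 2-fold.

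Gch1 was higher in acinar-like cells by 0.51 ± 0.16 (adjusted p = 0.02497), less than 2-fold. Its acinar-like levels, 13.9 to 90.7 CPM, were below those of the hormone-low intermediate and hormone classes, whose lowest value was 184.7 CPM, in epsilon-like cells of the Fev-Cre library. They lay within the Ngn3+-like range given above. Fev in acinar-like cells ran from 0.519 to 13.3 CPM, which overlapped the background of 0 to 6.45 CPM. Acinar-like cells held 0.905% of the Fev UMIs, beside 14.0% of the barcodes. Slc18a1 was lower in acinar-like than in ductal-like cells in 6 of 8 libraries and tied in the other 2, at means of 0.201 and 0.585 CPM (exact sign-flip permutation test, p = 0.03125). Both are near the background of 0 to 0.888 CPM.

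Mast-like cells had UMIs of the transporter gene Slc18a2 and of Maob in all 7 libraries that held at least 10 of them, though only 1 to 3 in some. Slc18a2 was at 36.5 CPM in v1 E12.5 (2 UMIs), 53 CPM in v1 E14.5 batch 1 (3 UMIs), 146 CPM in batch 2 (24 UMIs) and 83.2 CPM in v1 E17.5 (8 UMIs). In the v2 libraries it was at 39.7 CPM at E12.5 (11 UMIs), 71.9 CPM at E14.5 (14 UMIs) and 122 CPM at E17.5 (56 UMIs in 34 of 63 cells). Macrophage-like cells had 0 CPM in 6 of the 7 libraries and 0.549 CPM in v2 E12.5. Slc18a2 was thus higher in 7 of 7 libraries, by a mean of 78.8 CPM (SD 41.7), with p = 0.01562 in the exact sign-flip permutation test, the smallest that 7 libraries allow.

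Maob showed the same order, with 10.4 to 195 CPM in mast-like and 0 to 5.69 CPM in macrophage-like cells (higher in 7 of 7 libraries, exact p = 0.01562). Its v1 values rested on 1, 1, 6 and 1 UMIs. The v2 values rested on 32 UMIs at E12.5 (115 CPM), 38 at E14.5 (195 CPM) and 80 at E17.5 (174 CPM). None of the 8 members passed the filter on low counts in the edgeR comparison of mast-like with macrophage-like cells, in which 19.4% of 2639 genes were called.

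Tph1 in mast-like cells was concentrated at E17.5. It was not detected in v1 E12.5 (11 cells) or v1 E14.5 batch 1 (14 cells), where a count of 0 allows up to 54.7 and 53 CPM. It was at 36.4 CPM in v1 E14.5 batch 2 (6 UMIs in 4 of 31 cells) and at 531 CPM in v1 E17.5 (51 UMIs in 14 of 29 cells; 95% interval 395 to 698). In v2 it was at 18 CPM at E12.5 (5 UMIs in 4 of 44 cells), 30.8 CPM at E14.5 (6 UMIs in 2 of 37 cells) and 205 CPM at E17.5 (94 UMIs in 29 of 63 cells; 165 to 250.3). Both E17.5 values lay above every earlier one. The ratio of E17.5 to the earlier stages of the same kit was 24.4 in v1 (10.5 to 69.7) and 8.78 in v2 (4.69 to 18.2), intervals that cover counting error only. No test between stages was run for mast-like cells.

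Against macrophage-like cells, Tph1 was higher in 5 of 7 libraries and tied at 0 in the other 2 (means 117 and 0.157 CPM, exact sign-flip permutation test, p = 0.0625). Given those ties, the test could give no smaller p. By edgeR with no filter on low counts Tph1 was called, at 7.65 ± 0.57 on the log2 scale (adjusted p = 1.043e-38). With each cell thinned to 2000 UMIs, Tph1 was seen in 25.4% of v2 E17.5 mast-like cells (95% Clopper-Pearson interval 15.3 to 37.9%) and in 35.0% of 20 v1 E17.5 cells (15.4 to 59.2%). Without thinning the shares were 46.0% and 48.3%. Of the 63 mast-like cells of v2 E17.5, 29 had Tph1, 34 had Slc18a2 and 17 had both.

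The mast genes used for the name were also higher at later stages. Their summed level was 5165 CPM in v1 E12.5, 10550 and 23500 CPM in the v1 E14.5 batches and 56280 CPM in v1 E17.5, and 12840, 38860 and 63790 CPM in the v2 libraries in order of stage. Of the 9 genes, 2 or 3 had no UMI in each earlier library and none was at 0 at E17.5. Other marker sums moved with stage as well. The erythroid genes summed to 0, 318, 2730 and 20540 CPM in the v1 mast-like cells in the same order and to 317, 303 and 35600 CPM in v2. The cycling genes summed to 730 to 937 CPM before E17.5 and 333 CPM at E17.5 in v1, and to 887, 498 and 237 CPM in v2. The basophil genes reached their highest sum, 1467 CPM, in v1 E14.5 batch 1. With haemoglobin genes left out of the total, Tph1 at E17.5 was at 556 CPM in v1 and 220.3 CPM in v2. The part of the other sums in the Tph1 result was not tested. Slc18a2 did not follow one course, with an E17.5 to earlier ratio of 0.793 in v1 (0.313 to 1.78) and 2.3 in v2 (1.41 to 3.85).

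**Figure D3:**
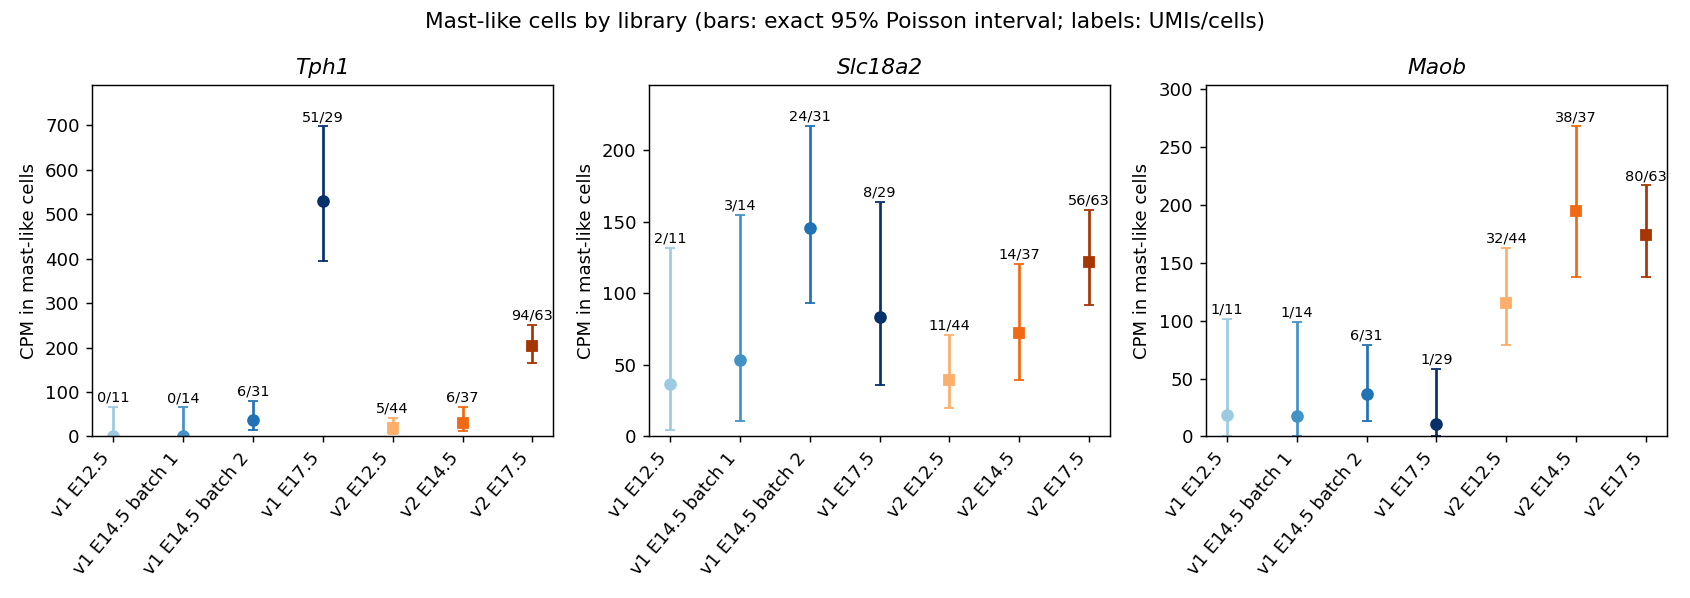
Tph1, Slc18a2 and Maob in mast-like cells of each library (CPM, with exact 95% Poisson intervals as bars and UMIs over cells as labels). The 2 E17.5 libraries stand above the rest for Tph1, at 531 and 205 CPM, while Slc18a2 spans 36.5 to 146 CPM with no such split.

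The other members were low in mast-like cells. Ddc ran from 0 to 21.8 CPM, Gch1 from 0 to 62.4 CPM and Fev was at 0 except for 1 UMI each in v2 E12.5 and v2 E14.5. Tph2 had no UMI in any mast-like cell and Slc18a1 had 1 in all. Slc6a4, the plasma membrane serotonin transporter, had UMIs in 6 of the 7 libraries, with 13 UMIs (135 CPM) in v1 E17.5 and 52 (113 CPM) in v2 E17.5. Hdc, which makes histamine, ran from 511 to 7403 CPM.

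In CPM, Tph1 was higher in hormone-low intermediate cells of some libraries than in any beta-like cells, though on the few UMIs given below. By number of Tph1 molecules in 1 class and library, v2 E17.5 beta-like cells came next after mast-like cells. In 575 cells there were 33 Tph1 UMIs in 23 cells, or 2.74 CPM (1.89 to 3.85). Of these cells, 16 had 1 UMI, 5 had 2 and 2 had more, up to 4. The 2 wells gave 18 and 15 UMIs. CPM is a share of all UMIs of a class, and the 9 beta cell genes checked summed to 455400 CPM in these cells. They summed to 194100 CPM in beta-like cells of v2 E14.5 and to 2200 CPM in acinar-like cells of v2 E17.5, so every other gene had a smaller share to take in the v2 E17.5 beta-like cells. Background cells of the same library had 0 UMIs in 3305 cells, which allows up to 0.0713 CPM, macrophage-like cells had 0 in 535, ductal-like cells 0 in 1963 and acinar-like cells 3 in 2056 (0.13 CPM). Thinned to 2000 UMIs, 1.04% of the beta-like cells had Tph1 (0.384 to 2.26%), and 0 of 3305 background cells did, which allows up to 0.0908%. The unthinned share was 4.0%, at a median of 20664 UMIs per beta-like and 12224 per background cell.

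No Tph1 UMI was found in beta-like cells of v1 E14.5 batch 1, v1 E14.5 batch 2, v1 E17.5 or v2 E14.5. Counts of 0 there allow up to 17.1, 9.89, 7.93 and 2.07 CPM. The first 3 limits exceed the v2 E17.5 level, so that level was not detectable at this depth in the v1 libraries. The v2 E14.5 limit lay within the interval of the v2 E17.5 level, so no difference between these was detectable at this depth. The Fev-Cre library had 1 UMI in 411 beta-like cells (0.277 CPM, 0.00701 to 1.54), an interval below that of v2 E17.5. These 2 libraries differ in stage, strain and sort, which cannot be told apart.

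Mast RNA was measured beside the beta-like Tph1 signal. In v2 E17.5 mast-like cells there were 94 Tph1 to 13303 Cma1 UMIs, and in beta-like cells 33 to 32. Of the 9 mast genes, 4 had no UMI in the beta-like cells, and their summed level was 10.5 CPM. A mast-gene UMI (Cpa3, Cma1, Tpsb2, Mcpt4 or Hdc) was seen in 4 of the 23 cells with Tph1 and in 97 of the other 552, never above 1 in the former. Without cells that held one, 25 Tph1 UMIs remained at 2.6 CPM. This split was chosen after the data had been seen.

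These beta-like cells formed 3 clusters. The cluster of 171 cells led by Npy, Prlr and G6pc2 held 19 of the 33 Tph1 UMIs (3.73 CPM), and the clusters of 247 and 157 cells held 5 (1.46 CPM) and 9 (2.56 CPM). Depth moved with these counts, with medians of 30540, 13520 and 22210 UMIs per cell in that order, and its part in them was not tested. The first cluster also held 11 of the 16 Tph2 UMIs (2.16 CPM). Prlr, the prolactin receptor, was at 58.5 CPM in v2 E17.5 beta-like cells (704 UMIs) and 10.6 CPM in v1 E17.5 (4 UMIs), with none at E14.5 in the Swiss Webster libraries. These cluster values are given as a description.

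Other members were counted in the same cells. Of the 23 cells with Tph1, 22 had Gch1, 16 Maob, 12 Ddc, 4 Fev and 1 Slc18a1. In all 575 beta-like cells the numbers were 564, 415, 241, 110 and 54. Ddc was seen in 52.2% of them and in 41.5% of the other beta-like cells, and Fev in 17.4% and 19.2%. The cells with Tph1 were deeper, with a median of 24480 UMIs against 20520. Slc18a1 had 57 UMIs in 54 of the 575 cells (4.74 CPM, 3.59 to 6.14) against 3 UMIs in the background (0.0713 CPM). Slc18a2 had 0 UMIs in the 575 cells, which allows up to 0.249 CPM. The level in mast-like cells of the same library, 122 CPM, was 489 times that limit, a ratio that leaves out the counting error of the mast-like level.

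**Figure D4:**
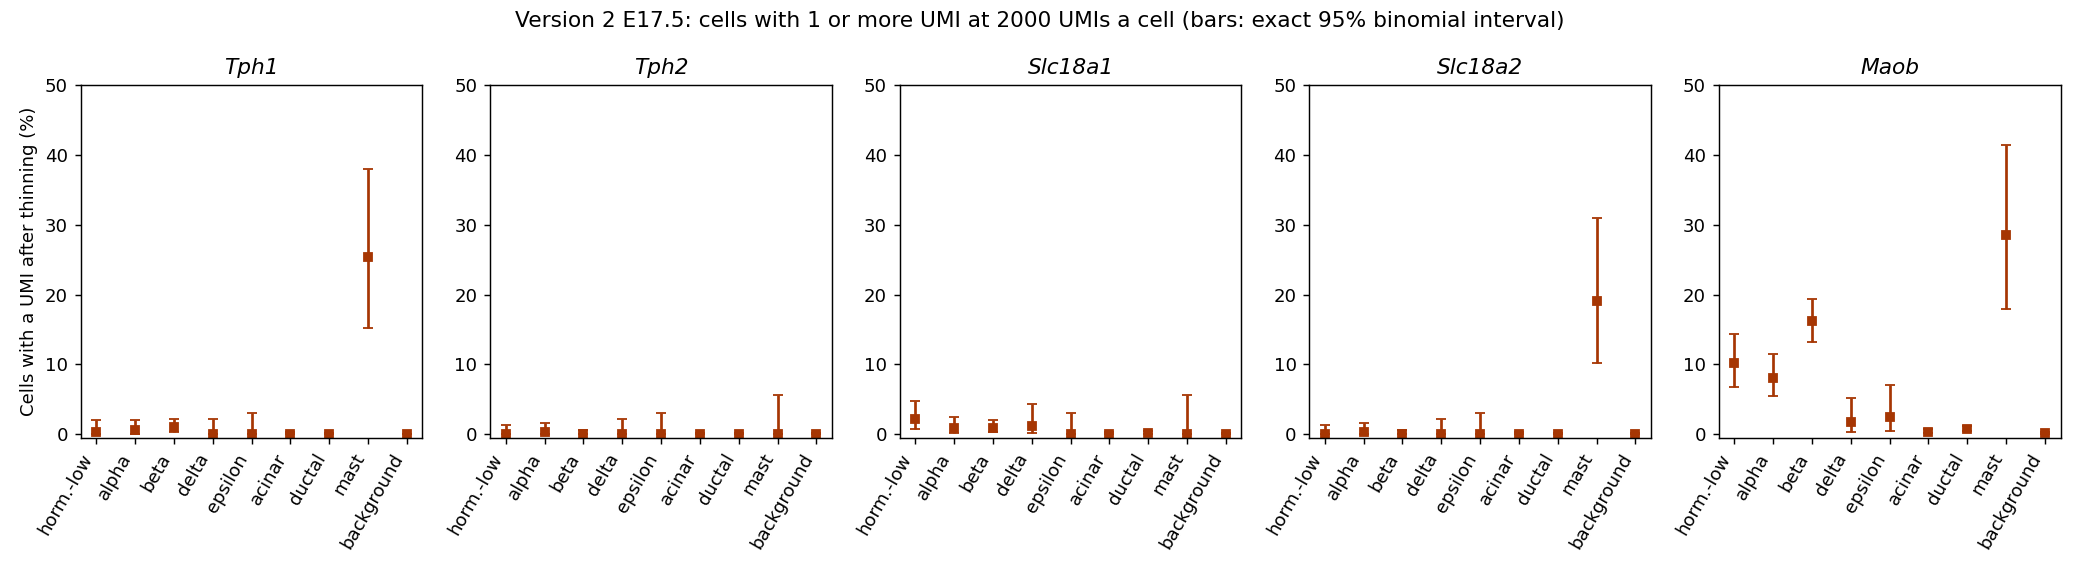
Share of cells (percent) with a UMI of Tph1, Tph2, Slc18a1, Slc18a2 or Maob in v2 E17.5 classes after each cell was thinned to 2000 UMIs, with 95% Clopper-Pearson intervals. Tph1 was seen in 25.4% of mast-like cells, 1.04% of beta-like cells and none of the background cells.

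Over the 6 libraries with beta-like cells, Slc18a1 was found in that class in each and Slc18a2 in 1. Slc18a1 was at 28.6 and 6.59 CPM in beta-like cells of the v1 E14.5 batches, 10.6 CPM in v1 E17.5, 5.52 CPM in v2 E14.5, 4.74 CPM in v2 E17.5 and 8.86 CPM in the Fev-Cre library. Alpha-like cells of the same 6 libraries had 0 to 8.85 CPM. The beta-like value was the higher in 5 of 6, at means of 10.8 and 3.63 CPM (exact sign-flip permutation test, p = 0.0625), so the difference did not pass this test. By edgeR with no filter on low counts it was called, at 1.14 ± 0.35 on the log2 scale (adjusted p = 0.008532). Slc18a1 in delta-like cells ran from 0 to 6.92 CPM and in hormone-low intermediate cells from 0 to 13.4 CPM, and its background was at most 0.888 CPM. Epsilon-like cells had no UMI in v2 E14.5 (62 cells) or v2 E17.5 (121 cells) and 2 UMIs in the Fev-Cre library. Ngn3+-like cells had none in 5 of 8 libraries, v2 E17.5 (278 cells) among them, and 2, 5 and 8 UMIs in v1 E12.5, v2 E12.5 and the Fev-Cre library.

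Slc18a2 had 1 UMI in all beta-like cells of the 6 libraries. Hormone-low intermediate cells had more in 5 of 6 libraries and tied in 1, at means of 2.24 and 0.0463 CPM (exact sign-flip permutation test, p = 0.0625). Given that tie, the test could give no smaller p. With no filter on low counts, Slc18a2 was called lower in beta-like cells by edgeR (-3.37 ± 1.22 on the log2 scale, adjusted p = 0.03361). Its background reached 6.97 CPM in v1 E17.5, above most of these endocrine values. Of those 34 background UMIs, 31 lay in mesenchymal cells (8.83 CPM). Erythroid, ductal-like and beta-like cells of that library had 0. This background may therefore hold expression by mesenchymal cells, which was not tested, and is no clear floor for endocrine cells.

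Tph1 was also found in hormone-low intermediate cells of 5 libraries, at low counts. The Fev-Cre library had 15 UMIs in 9 of 485 cells (4.29 CPM, 2.4 to 7.08), v1 E14.5 batch 2 and v2 E14.5 had 3 UMIs in 2 cells each, v1 E17.5 had 2 UMIs and v2 E17.5 had 1. In v1 E17.5, 1 of the 2 UMIs lay in a cell with 227 mast-gene UMIs. Against beta-like cells of 6 libraries, Tph1 was higher in intermediate cells in 4, lower in 1 and tied in 1. The means were 3.3 CPM in intermediate and 0.504 CPM in beta-like cells (exact sign-flip permutation test, p = 0.1875). All 9 Fev-Cre cells with Tph1 had Fev and Gch1, which were found in 466 and 436 of the 485. All 9 lay in the cluster of 300 cells led by Gprc5a, Vim, Pax4 and Fev, with none in the other cluster of 185. Background cells of that library had 3 Tph1 UMIs in 2335 cells.

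Tph2, the neuronal isoform, stayed near the limit of detection. Its largest count in a class was 16 UMIs in 13 v2 E17.5 beta-like cells (1.33 CPM, 0.76 to 2.16), where background cells had 4 UMIs (0.0951 CPM). Alpha-like cells of that library had 6 UMIs in 4 cells (1.62 CPM). Thinned to 2000 UMIs, no beta-like cell kept a Tph2 UMI, which allows up to 0.522%. The beta-like and alpha-like levels had overlapping intervals.

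Within the hormone-low intermediate class Fev and its partners were not uniform. In v2 E14.5 the cluster of 216 cells led by Tac1, Chgb, Cryba2 and Fev had 702 CPM of Fev, 698 CPM of Gch1, 109 CPM of Ddc and 48.6 CPM of Maob. The cluster of 194 cells led by Nhlh1, Hpca, Lhx1, Neurod2 and Pax4 had 441 CPM of Fev but 59.6 CPM of Gch1, 45 CPM of Ddc and 1.12 CPM of Maob. Hpca, Neurod2, Pax4, Cck and Ttll6 were also among the 10 leading genes of a cluster of 212 cells in v2 E17.5 that was named Ngn3+-like and had 107 CPM of Fev and 139.7 CPM of Gch1. Clusters with these genes thus stood on opposite sides of the comparison of intermediate with Ngn3+-like cells in these 2 libraries. In v2 E12.5 no cluster was named hormone-low intermediate. There an unnamed endocrine cluster of 98 cells led by Gip, Ins2 and Chgb had 677 CPM of Fev, 617 CPM of Gch1 and 77.1 CPM of Ddc.

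Fev in the intermediate cells was lower at E17.5 than at E14.5 in both kits, with ratios of 0.701 in v1 (0.616 to 0.795) and 0.258 in v2 (0.228 to 0.292). Ybx1, a widely expressed RNA-binding protein gene, was also lower in v2 E17.5 than in v2 E14.5, at 537 against 1195 CPM in these cells, 281 against 1183 CPM in beta-like and 483 against 2012 CPM in acinar-like cells. The v2 class was made of the 2 clusters above at E14.5 and of 1 at E17.5, led by Blnk, Fev and Slc38a11. The part of either in the v2 ratio was not tested. The v2 value was not the same in both wells of the pool. Well 1 had 58 Fev UMIs in 132 intermediate cells (51.1 CPM) and well 2 had 278 in 134 cells (257 CPM), a ratio of 5.04 (3.78 to 6.8). Both lay below the 588 CPM of v2 E14.5. In the same cells Gch1 had a ratio of 0.92 (0.821 to 1.03), Ddc of 0.858, Maob of 0.64 (0.441 to 0.921) and Actb of 1.15. Ybx1 had a ratio of 4.7, and 71 of 5520 genes were at least 2-fold higher and 13 at least 2-fold lower in well 2. Fev ranked 6 by the size of this ratio. Its ratio between wells was 1.56 in Ngn3+-like, 1.95 in alpha-like and 1.92 in beta-like cells. It was 1.3 (0.631 to 2.72) in delta-like and 0.627 (0.209 to 1.73) in epsilon-like cells, with intervals that include 1.

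**Figure D5:**
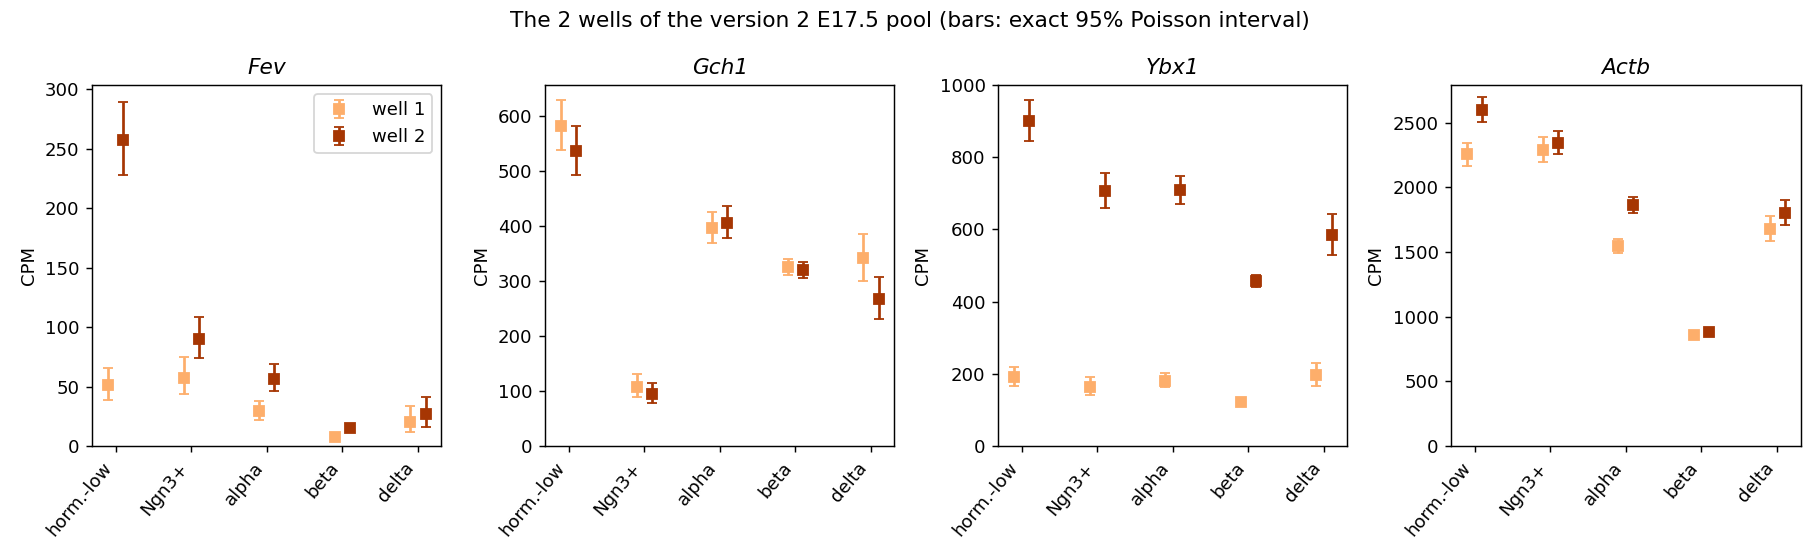
Levels (CPM) of Fev, Gch1, Ybx1 and Actb in 5 endocrine classes of each well of the v2 E17.5 pool, with exact 95% Poisson intervals as bars. In hormone-low intermediate cells Fev and Ybx1 were 5.04 and 4.7 times as high in well 2, while Gch1 was close to equal.

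Beta-like cells at E17.5 were compared with those at E14.5 over 5 Swiss Webster libraries with kit as a term. Of 4 members tested none was called by edgeR, where 1.2% of 5005 genes were, and 1 of them, Fev, had an unadjusted p under 0.05. Fev had a log2 fold change of -0.98 ± 0.37 (adjusted p = 0.3205). It passed the test without v1 E14.5 batch 1 (-1.18, adjusted p = 0.003976) and without v1 E17.5 (-1.97, adjusted p = 0.001665). Without v2 E14.5 it was -0.10 and without v2 E17.5 it was -0.08 (adjusted p up to 1). Ddc (0.67 ± 0.41), Maob (0.28 ± 0.30) and Gch1 (-0.04 ± 0.27) were not called. With 1 library left out, Ddc ran from -0.20 (without v2 E14.5) to 1.12, so its direction turned. Tph1 did not pass the filter.

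Acinar-like cells at E17.5 against E14.5 gave no call among 4 members either, against 15% of 10093 genes. Ddc was at -0.90 ± 0.36 (adjusted p = 0.074) and Gch1 at 1.11 ± 0.45 (adjusted p = 0.07977), with unadjusted p-values of 0.01342 and 0.01487. Ddc passed with total-UMI scaling (-1.44, adjusted p = 0.002995) and without v1 E17.5 (-1.40, adjusted p = 0.02784). It was -0.31 without v2 E14.5 and -0.34 without v2 E17.5 (adjusted p up to 0.7464). Gch1 passed with only well 2 of the v2 E17.5 pool (1.20, adjusted p = 0.04324). Acinar-like Ddc was 210.2 and 145 CPM in the v1 E14.5 batches and 158 CPM in v2 E14.5, and 98.9 and 43.8 CPM in v1 and v2 E17.5. Fev (-0.27 ± 0.83) and Maob (-0.87 ± 0.80) were not called. With 1 library left out, Fev ran from -0.60 to 1.01 (the highest without v2 E14.5), so its direction turned. Maob ran from -7.82 to -0.89, the lowest being without v2 E17.5, where the E17.5 acinar-like cells left had no Maob UMI.

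In the Fev-Cre library the reporter could be set beside the gene that drives the Cre. GFP transcripts were found in 99.8% of alpha-like, 99.8% of beta-like, 100% of delta-like, 96.5% of epsilon-like and 90.5% of hormone-low intermediate cells. Ngn3+-like cells had them in 17.7%. The share was 13.5% in mesenchymal and 25% in acinar-like and ductal-like cells, and the value of Ngn3+-like cells lay within that range. These shares are not thinned, at median depths of 8537 UMIs in beta-like, 6385 in intermediate, 7034 in Ngn3+-like, 5856 in mesenchymal and 16239 in acinar-like cells. Fev itself was found in 96.1% of intermediate, 54.5% of beta-like, 53.0% of alpha-like and 16.6% of Ngn3+-like cells, with 3.89% in mesenchymal cells. Among Ngn3+-like cells those with GFP had 110 CPM of Gch1 and 87 CPM of Fev, and those without had 18.3 and 54 CPM. Among intermediate cells those with GFP had 781 CPM of Gch1 and 32.3 CPM of Maob, and those without had 260.1 and 3.61 CPM, while Fev was at 1056 and 1120 CPM. With 1 library these values have no replicate check.

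A wider list of 54 genes of monoamine supply, breakdown, receptors and regulation was read from the same fits, and most of its tested genes were not called. Between hormone-low intermediate and Ngn3+-like cells 16 were tested, 1 was higher and 3 lower, where 13.1% of all genes tested were called, with a median log2 fold change of -0.14 beside 0.01 for all genes. The higher gene was Ghr, the growth hormone receptor (2.60 ± 0.27, adjusted p = 2.928e-05), and Lmx1b, a serotonergic regulator in neurons, was among the lower ones (-1.35 ± 0.40, adjusted p = 0.02252). The Lmx1b call was lost without v1 E14.5 batch 2 (-1.08, adjusted p = 0.06397) and with Leiden resolution 2 (-0.50, adjusted p = 0.4877). It was also lost with doublets removed by Scrublet as well (-0.91, adjusted p = 0.2126). In v2 E14.5 Lmx1b went the other way, at 5.88 CPM in intermediate and 3.41 CPM in Ngn3+-like cells. Between beta-like and intermediate cells 16 were tested and 2 were higher, against 9.21% of all genes, with medians of 0.35 and -0.03. These were Ghr again (1.06 ± 0.14, adjusted p = 4.835e-05) and Gchfr, the feedback regulator of GTP cyclohydrolase (1.31 ± 0.26, adjusted p = 0.001141). In CPM both were higher in beta-like cells in 5 of 6 libraries. In v2 E17.5 they were lower, Ghr at 64.2 against 94.5 CPM and Gchfr at 18.4 against 24.0 CPM. Under total-UMI scaling both were below 2-fold, at 0.72 and 0.91. Ghr was also just under 2-fold without v1 E14.5 batch 2 (0.99). The Gchfr call was lost without the library block (1.32, adjusted p = 0.133).

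Between beta-like and alpha-like cells 17 were tested and 1 was higher, against 7.2% of all genes (medians 0.13 and -0.02). That gene was Th, which makes dopa for dopamine (1.74 ± 0.22, adjusted p = 1.621e-05). With at least 500 genes per barcode this call was lost (0.98, adjusted p = 0.09918). Th was higher still in delta-like than in beta-like cells (1.65 ± 0.23, adjusted p = 3.626e-05), where Nkx2-2 was lower (-1.84 ± 0.17, adjusted p = 4.449e-07). Its delta-like levels of 69.6, 145, 57.6 and 80.6 CPM stood beside 29.1, 31.8, 8.57 and 36.4 CPM in beta-like cells. Th was the 1 gene of 20 tested that was called between epsilon-like and alpha-like cells, against 1.26% of all genes (2.07 ± 0.39, adjusted p = 0.03802). That call was lost without v2 E17.5 (1.57, adjusted p = 0.1989), without the Fev-Cre library (2.16, adjusted p = 0.1176) and without the library block (1.92, adjusted p = 0.2788). Leiden resolution 2 (2.15, adjusted p = 0.06589) and at least 500 genes per barcode (1.64, adjusted p = 0.4746) also ended it. So did the Fev-Cre matrix without reporter (1.21, adjusted p = 0.4144).

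Between acinar-like and ductal-like cells 21 were tested, with 4 higher and 3 lower, against 12.6% of all genes (medians 0.00 and -0.02). Ghr (2.66 ± 0.36), Aldh1a1 (2.17 ± 0.51), Slc7a5 (1.52 ± 0.32) and Pcbd1, a tetrahydrobiopterin recycling gene (1.15 ± 0.14), were higher, and Socs2 (-1.39 ± 0.22) was among the lower ones. Pcbd1 was below 2-fold under total-UMI scaling (0.74), and the Socs2 call was lost without the library block (-1.32, adjusted p = 0.2631). Between mast-like and macrophage-like cells 8 were tested and 3 called, against 19.4% of all genes. Hdc (12.3 ± 0.26) and Gata2 (10.4 ± 0.36) were higher and Aldh2 (-1.16 ± 0.17) was lower. No list gene was called between beta-like stages (15 tested). Between acinar-like stages, of 18 tested, 3 were higher where 15% of all genes were called in either direction, namely Socs2, Cish and Aldh1a1. All 3 calls were lost without v2 E14.5 (adjusted p = 0.4921, 0.601 and 0.09718) and without v2 E17.5 (adjusted p = 0.6482, 0.6895 and 0.1396). None of the 14 serotonin receptor genes passed the filter in any of the 9 comparisons.

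The genes whose levels followed Tph1 most closely over 101 class-by-library sums were Tpsab1 (Pearson r of log2(CPM + 1) 0.86), Gcsam (0.83), Ccl1 (0.82), Tpsb2 (0.79) and Rgs13 (0.78). Those nearest to Slc18a2 were Il4 (0.77), Il13 (0.77), Il1rl1 (0.76), Prss34 (0.74) and Gata2 (0.74). Slc18a1 had other neighbours, Crhr2 (0.80), Cdhr1 (0.79), Kcnk16 (0.74), Pak3 (0.74) and Chst8 (0.73). The sums share libraries and depth, and the coefficients, chosen as the highest among 9627 genes, describe these sums only.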

How the data were processed

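The authors aligned reads to mm10 with Cell Ranger 1.1 (v1) and 2.1 (v2) and deposited UMI counts per gene and barcode, raw and not normalized. The Fev-Cre counts were deposited with and without reporter genes added to the genome. The matrix with reporter genes was used and the other served as an alternative, since all 7888 of its barcodes were shared. From these counts, barcodes with at least 200 genes were kept, and doublets were removed by genes of compartments that exclude each other. Cells were clustered by Leiden (leidenalg 0.10.2) at resolution 1 on 20 principal components. Scanpy 1.11.5 served only for the alternative with Scrublet. The 8 members and the wider list were held out of the variable genes. The members and lists were chosen with earlier results of these data known.

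Classes of at least 20 cells (10 for mast-like) were summed per library. They were tested with edgeR 4.0.16 (quasi-likelihood, TMM, filterByExpr), with library as a block between classes and kit as a term between stages. P-values were adjusted over all genes tested (Benjamini-Hochberg), and the fit was tested on simulated data. A library is 1 pool, so p-values measure spread between pools that differ in stage, kit and strain. DESeq2 1.42.0, scaling, filters, clustering, left-out libraries and wells were the alternatives. The blocks pair classes taken from the same library. Members below the filter had two-sided exact sign-flip permutation tests of CPM differences over libraries. Detection was measured after thinning to 2000 UMIs (floor 3 counts). The named genes were the 8 members, up to 6 called genes of the wider list with the largest fold in each comparison, and 5 nearest profiles. Prlr, Slc6a4, Ybx1 and Actb were named after their values had been seen. Some genes of the wider list are not reported here.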

Additional observations from a re-analysis of the deposited data

Results flagged for a closer look

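Several counts of members lay in cells outside the comparisons, above the 3-count limit and above the background of the same library. They are given as values.

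In the Fev-Cre library, unnamed endocrine clusters held Slc18a1 in 3 places, with 20 UMIs in 18 of 393 cells, 36 UMIs in 34 of 363 cells and 12 UMIs in 12 of 218 cells. The cluster of 363 cells also held 5 Tph1 UMIs in 5 cells. In the same library 4 Slc18a2 UMIs lay in 4 of 43 neutrophil-like cells.

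In v1 E17.5, 14 Tph1 UMIs lay in 4 of 33 unnamed immune cells whose cluster was led by Calca, Il2ra, Gata3 and Icos (145 CPM). A v2 E17.5 cluster of 67 unnamed immune cells led by Calca, Icos and Gata3 had 2 Tph1 UMIs (3.83 CPM). Basophil-like cells of v1 E17.5 held 4 Slc18a2 UMIs in 3 of 21 cells, and in v2 E17.5 they held 7 in 6 of 15 cells (43.6 CPM).

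In v2 E12.5, Slc18a2 was found outside the pancreas epithelium, with 23 UMIs in 21 of 431 neuron-like cells, 13 UMIs in 13 of 365 glia-like cells and 4 UMIs in a single unnamed immune cell. Slc18a1 had 13 UMIs in 12 of 238 cells and 6 UMIs in 5 of 131 cells of unnamed endocrine clusters.

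In v2 E17.5, glia-like cells held 9 Slc18a2 UMIs in 4 of 176 cells and 7 Slc18a1 UMIs in a single cell. An unnamed endocrine cluster of 84 cycling cells held 5 Tph1, 4 Tph2 and 6 Slc18a1 UMIs. A cluster of 70 cells from the endocrine compartment, left unnamed and led by Spp1, Cyr61 and Hes1, which ductal cells express, held 4 Slc18a1 UMIs.

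For 2 contrasts the libraries of each stage had differences of opposite sign. The mean difference between delta-like and beta-like Gch1 was -55.35 CPM at E17.5 and positive at E14.5, and that between acinar-like and ductal-like Maob was -2.63 CPM at E17.5 and positive at E14.5. For Gch1 the v2 E14.5 levels were equal within counting error (484.1 and 483.9 CPM), so the E14.5 side rests on the Fev-Cre library (702 against 297 CPM). For Maob the v1 E17.5 acinar-like value was 0 UMIs in 31 cells. These differences between stages were not tested.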

How the results depend on the processing

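For members that passed the filter, 469 of 485 alternative values over 30 results kept their side of the threshold, 11 lost the call and 5 gained it. In 35 of the 485 the sign differed from that reported, over 11 results, all of them differences that were not called, and no called value changed sign. The exceptions stand beside the results, apart from Maob between acinar-like and ductal-like cells under DESeq2 (1.00). With no filter on low counts, edgeR also called members that the filter had left out. These were Slc18a1 (beta-like against alpha-like), Slc18a1 and Maob (intermediate against Ngn3+-like) and Slc18a2 (beta-like against intermediate, and acinar-like stages). Fev (acinar-like against ductal-like) and Tph1, Ddc, Slc18a2 and Maob (mast-like against macrophage-like) were called as well. Shares of cells depended on depth, since 155 of 464 moved without thinning and 94 of 464 at 3000 UMIs.

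Counts over all genes moved more, and the causes were not tested. With no filter on low counts, which tests more genes, calls went from 527 to 1323 (beta-like against alpha-like), 1008 to 2007 (hormone-low intermediate against Ngn3+-like), 719 to 1434 (beta-like against intermediate), 666 to 1123 (delta-like against beta-like), 110 to 455 (epsilon-like against alpha-like), 1397 to 2310 (acinar-like against ductal-like), 511 to 2058 (mast-like against macrophage-like) and 60 to 185 (beta-like stages). With 500 genes per barcode the beta-like against alpha-like count was 238, the epsilon-like count 10 and the beta-like stage count 31. Total-UMI scaling gave 1144 (beta-like against intermediate), 2113 (acinar-like against ductal-like) and 2401 (acinar-like stages, 1515 in the report), and DESeq2 gave 912 for the last. Scrublet gave 178 for epsilon-like cells and 22 for beta-like stages, Leiden resolution 2 gave 176 for epsilon-like cells, and the Fev-Cre matrix without reporter 53. Classes of 10 cells gave 616 (intermediate against Ngn3+-like) and 207 (epsilon-like), and classes of 20 gave 930 (mast-like). Without the Fev-Cre library the intermediate counts were 586 against Ngn3+-like and 458 against beta-like cells. Well 1 alone gave 25 calls between beta-like stages. Without the kit term there were 0 calls there by edgeR (320 genes at an unadjusted p under 0.05, and 49 calls by DESeq2 with the term) and 422 between acinar-like stages.

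Without the library as replicate block, which pairs classes of the same library, the calls were 346 between delta-like and beta-like cells and 2 between epsilon-like and alpha-like cells. That fit ended no call of a member except Maob in epsilon-like cells.

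Leaving out 1 library at a time gave 297 (without v2 E17.5) to 733 calls for beta-like against alpha-like cells, 586 (without Fev-Cre) to 1252 for intermediate against Ngn3+-like, 458 (without Fev-Cre) to 910 for beta-like against intermediate, 324 (without v2 E17.5) to 819 for delta-like against beta-like and 118 to 290 (without v2 E14.5) for epsilon-like against alpha-like cells. It gave 860 (without v2 E17.5) to 1640 for acinar-like against ductal-like and 485 to 582 for mast-like against macrophage-like cells. Between stages it gave 16 (without v2 E17.5) to 252 (without v1 E14.5 batch 1) for beta-like and 84 (without v2 E17.5) to 1848 for acinar-like cells. Without v2 E14.5 the counts were 670, 479, 36 and 106 for the intermediate, beta-like against intermediate, beta-like stage and acinar-like stage comparisons, and without v1 E17.5 the beta-like stage count was 131.

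Total-UMI scaling moved the share of calls that were higher from 54.3% to 31.8% (beta-like against alpha-like), 47.2% to 57.6% (intermediate against Ngn3+-like), 59.7% to 19.3% (beta-like against intermediate), 48.8% to 78.3% (delta-like against beta-like), 40.3% to 15.2% (acinar-like against ductal-like), 68.3% to 8.89% (beta-like stages) and 48.5% to 15.3% (acinar-like stages). It shifted the median log2 fold change of all genes to between -0.58 and 0.34.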
